A study of Mus musculus with 3 samples.

Results

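The erythroid transcription factors described here are 7 genes, Gata1, Tal1, Klf1, Gfi1b, Nfe2, Lmo2 and Zfpm1, out of 21593 protein-coding mouse genes that were counted. They were listed by name, and their accessibility was measured in the gene window (the gene body plus 2 kb upstream), in the promoter (1000 bp upstream to 100 bp downstream of the gene start) and in flanks of 50 kb on either side, all in the mm10 build. The assay was single-nucleus ATAC-seq, in which the transposase Tn5 cuts open DNA inside nuclei and the ends of each unique fragment mark 2 insertions. The 3 libraries came from wild-type (WT) C57BL/6JRj embryos that were collected at E12.5, at E13.5 or at E15.5 (days of embryonic development). Nuclei were isolated from a few thick frozen sections of littermates of the embryos used for the spatial assay, stained with 7-AAD, sorted and loaded on the 10x Genomics platform. Each stage had 1 library, so that no stage was replicated. The sex of the embryos was not determined, and how many embryos went into a library was not given in the sources used here.

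Erythroid cells make the haemoglobin-filled red cells of the blood, and in the mid-gestation embryo they come first from the yolk sac and then from the fetal liver. Gata1 encodes the zinc finger factor that binds GATA motifs and stands at the head of the erythroid program, and Zfpm1 encodes FOG1, the cofactor that Gata1 recruits. Tal1 is a basic helix-loop-helix factor that binds E-boxes and is tied to Gata1 by the bridging protein Lmo2, Klf1 binds CACCC boxes at globin and red cell genes, Nfe2 is the blood-specific subunit of the NF-E2 dimer, and Gfi1b is a repressor that is itself bound by Gata1.

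The authors' cell table held 1879 nuclei, of which 1450 fell into the 10 clusters used here (83 from E12.5, 809 from E13.5 and 558 from E15.5). The sorted nuclei of the libraries held 8603028 (E12.5), 66925016 (E13.5) and 39513357 (E15.5) unique fragments, so that E13.5 was the deepest of the 3. Cluster 5 held 186 nuclei, of which 10 came from E12.5, 166 from E13.5 and 10 from E15.5. Cluster 11 held 43 nuclei (1, 35 and 7). The erythroid label of both was checked with 10 erythroid markers, of which 9 were counted: their summed gene-window level was 678 to 1030 CPM in cluster 5 and 370 to 1052 CPM in cluster 11, against 155 to 161 CPM in cluster 8 and 66.7 to 220 CPM in the remaining clusters. In cluster 11 the lower value was that of E15.5 (31 fragments), where megakaryocyte markers were high, as given below. CPM here means fragments in a window scaled to 1000000 fragments of the same cluster and library in windows of that kind, and values listed without a stage run from the youngest library to the oldest, which for cluster 11 means E13.5 and then E15.5, since its single nucleus of E12.5 was not used in the sums. Cluster 8 held liver, white blood and endothelial markers together, and cluster 0 had the highest summed neuron markers of E13.5 (767 CPM). The deposited clusters were made from these same nuclei, so each comparison between clusters describes the clusters and is no independent test of cell identity.

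Cluster 11 stood apart from the others in its chromatin profile, and this bears on each value given for it. Its nuclei were shallow (median 12478 fragments in E13.5, against 62521 in cluster 5), 37.5% of its E13.5 fragments touched a promoter window against 14.3% in cluster 5, and the mean GC content under its insertions was 55.3% against 49.0% in cluster 5 and 47.8% in the other 8 clusters. The part of depth and GC content in the cluster 11 values was not tested. Since promoter CPM are scaled to promoter fragments, a ratio of cluster 5 to cluster 11 at a promoter is larger on this scale than when both are scaled to all their fragments, and both are given where such a ratio is printed.

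Some of the stretches of DNA at these genes that were more open in cluster 5 than in the other clusters are shown first. RefSeq (GRCm38.p6) gave promoter sequences from 250 bp before to 50 bp after a start for 5 of the 7 genes: Gata1, Tal1, Klf1, Gfi1b and Zfpm1, but had no entry for Nfe2 and Lmo2. Capitals mark letters that match the GATA motif (AGATAA or AGATAG and likewise TGATAA or TGATAG on either strand), and in 2 sequences the composite of an E-box part and a GATA motif (CTG, then 7 or 8 bases of any kind, then AGATAA), whose GATA letters also count as a GATA match. The 3 promoters shown are those whose windows were the most restricted to cluster 5, and they were chosen after their values were seen. Each is written 5′ to 3′ on the strand of its gene.
Gata1 promoter, chrX:7967861-7968160, minus strand: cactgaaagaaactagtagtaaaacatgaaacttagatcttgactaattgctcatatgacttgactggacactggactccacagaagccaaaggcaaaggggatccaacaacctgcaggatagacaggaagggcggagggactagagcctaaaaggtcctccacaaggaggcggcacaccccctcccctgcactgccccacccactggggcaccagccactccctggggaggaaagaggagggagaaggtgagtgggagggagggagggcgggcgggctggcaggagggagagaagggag
Klf1 promoter, chr8:84901732-84902031, plus strand: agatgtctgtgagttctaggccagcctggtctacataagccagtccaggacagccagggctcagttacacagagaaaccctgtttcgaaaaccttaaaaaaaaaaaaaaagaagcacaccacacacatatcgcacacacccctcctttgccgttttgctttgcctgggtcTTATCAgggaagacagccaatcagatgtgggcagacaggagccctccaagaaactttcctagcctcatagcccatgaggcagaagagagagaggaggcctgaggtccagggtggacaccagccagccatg
Gfi1b promoter, chr2:28621933-28622232, minus strand: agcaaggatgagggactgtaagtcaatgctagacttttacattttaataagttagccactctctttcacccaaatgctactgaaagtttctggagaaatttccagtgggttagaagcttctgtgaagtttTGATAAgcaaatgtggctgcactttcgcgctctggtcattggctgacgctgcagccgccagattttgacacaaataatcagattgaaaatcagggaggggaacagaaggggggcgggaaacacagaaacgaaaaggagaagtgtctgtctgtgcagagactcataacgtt

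Over these 300 bp, cluster 5 of E13.5 had 165 insertions at Gata1, 322 at Klf1 and 89 at Gfi1b, against 9, 85 and 20 in the other 8 clusters pooled. Scaled to all insertions, these were 72.8, 15.04 and 17.7 times the level of the others. The Gata1 entry had no GATA match, and the Klf1 and Gfi1b entries had 1 each. A GATA match was present in 29.8% of all 32851 RefSeq promoters of this length. A match of letters is a description only and was not tested as a binding site.

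The next 6 sequences are the 300 bp around the summit of a region that was far more open in cluster 5 than in the other clusters, 1 for each of 6 genes, and they belong to the listed regions described below. They were chosen after their values were seen, are written on the plus strand of mm10, and use the same capitals. The region 15460 bp upstream of the Gata1 start is intergenic, that 6612 bp downstream of the first Nfe2 start is intronic and sits 104 bp from the fifth annotated Nfe2 start, and that 39515 bp downstream of the Tal1 start is intergenic, with the start of Pdzk1ip1 as the nearest at 7233 bp. The Lmo2 region lies 965 bp upstream of the start, the Gfi1b region is intergenic, 19631 bp downstream of the start, and the Zfpm1 region lies in an intron, 27380 bp downstream of the start.
Gata1 upstream region, chrX:7993381-7993680: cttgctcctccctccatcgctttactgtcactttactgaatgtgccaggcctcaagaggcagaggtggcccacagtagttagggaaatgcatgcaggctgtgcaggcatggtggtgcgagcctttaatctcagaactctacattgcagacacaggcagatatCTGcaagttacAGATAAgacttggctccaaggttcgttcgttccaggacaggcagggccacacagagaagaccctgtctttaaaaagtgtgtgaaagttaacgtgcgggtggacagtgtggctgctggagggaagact
Nfe2 intronic region, chr15:103251641-103251940: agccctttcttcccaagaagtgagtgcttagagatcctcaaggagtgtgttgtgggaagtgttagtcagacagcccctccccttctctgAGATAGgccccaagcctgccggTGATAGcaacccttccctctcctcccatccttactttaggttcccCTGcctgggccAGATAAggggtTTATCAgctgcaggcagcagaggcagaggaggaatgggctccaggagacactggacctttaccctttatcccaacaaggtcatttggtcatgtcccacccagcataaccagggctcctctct
Tal1 downstream region, chr4:115095791-115096090: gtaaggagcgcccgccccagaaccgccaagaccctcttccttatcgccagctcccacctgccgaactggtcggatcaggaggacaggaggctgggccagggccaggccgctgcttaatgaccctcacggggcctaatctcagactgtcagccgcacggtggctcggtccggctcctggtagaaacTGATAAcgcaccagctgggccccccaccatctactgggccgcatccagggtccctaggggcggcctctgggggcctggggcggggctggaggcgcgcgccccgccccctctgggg
Lmo2 upstream region, chr2:103956871-103957170: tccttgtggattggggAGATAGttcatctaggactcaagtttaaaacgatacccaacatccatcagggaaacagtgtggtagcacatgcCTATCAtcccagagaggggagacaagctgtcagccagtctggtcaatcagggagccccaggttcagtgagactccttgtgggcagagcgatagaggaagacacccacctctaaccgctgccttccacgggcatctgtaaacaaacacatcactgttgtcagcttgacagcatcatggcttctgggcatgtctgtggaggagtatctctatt
Gfi1b downstream region, chr2:28602201-28602500: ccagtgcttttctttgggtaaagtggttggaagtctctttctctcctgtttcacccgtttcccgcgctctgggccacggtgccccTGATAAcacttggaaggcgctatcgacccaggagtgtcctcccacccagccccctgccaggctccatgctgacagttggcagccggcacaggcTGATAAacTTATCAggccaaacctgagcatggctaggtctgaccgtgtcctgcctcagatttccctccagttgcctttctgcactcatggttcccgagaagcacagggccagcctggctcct
Zfpm1 intronic region, chr8:122309371-122309670: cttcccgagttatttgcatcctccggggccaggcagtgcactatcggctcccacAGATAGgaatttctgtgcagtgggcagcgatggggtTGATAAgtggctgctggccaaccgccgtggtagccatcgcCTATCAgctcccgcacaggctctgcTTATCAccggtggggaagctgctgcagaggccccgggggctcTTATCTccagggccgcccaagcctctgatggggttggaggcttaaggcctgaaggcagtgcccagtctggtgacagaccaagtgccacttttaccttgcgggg

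Gata1, the gene of the leading erythroid factor (ENSMUSG00000031162, chrX:7959260-7978071, minus strand), was accessible in clusters 5 and 11 and low in most sums of the other clusters. Its gene window held 51.4, 82.1 and 84.6 CPM in cluster 5 of the 3 libraries (20, 708 and 30 fragments) and 98.3 and 95.4 CPM in cluster 11 of E13.5 and E15.5 (46 and 8 fragments). The 22 sums of the other clusters and libraries ran from 0 to 30.8 CPM with a median of 4.56 CPM, so that the values of neither cluster overlapped them. The highest of them, cluster 9 of E12.5, rested on 22 fragments. Its 95% interval (19.3 to 46.6 CPM) overlapped that of cluster 5 in the same library (31.4 to 79.4 CPM). In cluster 5 the level was 4.75 times that of the other 8 clusters pooled at the youngest stage (95% interval 2.66 to 8.21), and then 14.7 times (12.4 to 17.5) and 15.3 times (9.94 to 23.0). With the libraries as replicates, the log2 fold change of cluster 5 against the mean of the other clusters was 3.76 ± 0.302 (SE, adjusted p = 3.44e-13, edgeR's quasi-likelihood test), and that of cluster 11 was 4.17 ± 0.447. The 95% intervals of ratios and shares, here and in what follows, cover counting error only. The SEs of the fit also include how unevenly the clusters differed from library to library, pooled over all fitted clusters.

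The opening of Gata1 lay inside the gene, not at its outermost annotated start. At that start (position 7978071) the promoter window held 0, 4.83 and 0 CPM in cluster 5 (9 fragments in E13.5 and none in the other libraries) and failed the filter on low counts, so that it was not tested. At the second annotated start, 10161 bp further in, the same width held 82.0, 122 and 180 CPM in cluster 5 and 56.8 and 129 CPM in cluster 11 of E13.5 and E15.5, while no sum of the other clusters passed 17.5 CPM. The E13.5 ratio of cluster 5 to cluster 11 there was 2.15 (1.18 to 4.38) per promoter fragments and 0.820 (0.450 to 1.67) per all fragments, so that the order of the 2 clusters rests on the scaling. The 500 bp bin with the most cluster 5 insertions in the gene window lay at this start, with 187 insertions in E13.5 (7.17 insertion CPM, that is, scaled to 1000000 insertions of the cluster and library) against 10 in the other 8 clusters (0.097 insertion CPM). The promoter sequence shown above belongs to this start.

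Zfpm1, the gene of the FOG1 cofactor (ENSMUSG00000049577, chr8:122282141-122337251), was open at a basal level in every cluster and stronger in cluster 5. Its gene window held 594, 746 and 691 CPM in cluster 5, above all 22 sums of the other clusters (154 to 403 CPM, median 217). Cluster 11 held 579 CPM in E13.5 and 191 CPM in E15.5 (271 and 16 fragments), and its E15.5 value lay among the other clusters. Against the other clusters, its log2 fold change was 1.53 ± 0.180 in cluster 5 (adjusted p = 7.73e-09, edgeR) and 0.81 ± 0.256 in cluster 11 (adjusted p = 0.0076). Without E13.5, cluster 11 kept only its E15.5 sum of 7 nuclei, and its value was then −0.57.

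The Zfpm1 promoter was open in every cluster as well. Per promoter fragments it held 492, 588 and 460 CPM in cluster 5, 645 and 323 CPM in cluster 11 of E13.5 and E15.5, and 179 to 532 CPM (median 340) in the other sums, so that the groups overlapped. The log2 fold change at the promoter was 0.77 ± 0.121 in cluster 5 against 1.53 over the gene window, and 19 of the 58 regions described below lay at Zfpm1, 12 of them inside its gene window.

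Tal1, whose protein pairs with E-proteins at E-boxes (ENSMUSG00000028717, chr4:115056426-115071755), had its highest levels in cluster 11. Its gene window held 108, 135 and 206 CPM in cluster 5 (42, 1168 and 73 fragments) and 385 and 549 CPM in cluster 11 of E13.5 and E15.5 (180 and 46 fragments), against 3.67 to 59.1 CPM (median 25.0) in the other 22 sums. The order was thus cluster 11, then cluster 5, then the rest, with no overlap between any of them, and the highest of the rest was cluster 8 of E15.5. The log2 fold change was 2.39 ± 0.199 in cluster 5 (adjusted p = 9.74e-13, edgeR) and 3.84 ± 0.239 in cluster 11 (adjusted p = 4.03e-16).

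Cluster 5 and cluster 11 differed in where the highest Tal1 bin lay. In cluster 5 of E13.5, the highest 500 bp bin of the gene window lay 324 bp downstream of the start (494 insertions, 18.9 insertion CPM). In cluster 11 it lay 6824 bp downstream and overlapped an exon, with 73 insertions from 18 nuclei (70.7 insertion CPM), where cluster 5 had 4.9 and the other clusters 2.2 insertion CPM. The GC content of that bin was 71.4%. Cluster 11 was open in the bin at 324 bp as well, with 39 insertions in E13.5 (37.8 insertion CPM). At the second annotated Tal1 start, 1012 bp inside the gene, cluster 5 held 164, 218 and 330 CPM in the promoter window and cluster 11 held 232 and 194 CPM, with an E13.5 ratio of cluster 5 to cluster 11 of 0.940 (0.690 to 1.31) per promoter fragments. Scaled to all fragments, the ratio at this start was 0.358 (0.263 to 0.499), and that of the gene window was 0.257 (0.219 to 0.302).

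Lmo2, the bridge between Tal1 and Gata1 (ENSMUSG00000032698, chr2:103957986-103981878), was the one member whose gene window was called lower in cluster 11 than in cluster 5. Its gene window held 108, 139 and 181 CPM in cluster 5 (42, 1196 and 64 fragments) and 34.2 and 23.9 CPM in cluster 11 of E13.5 and E15.5 (16 and 2 fragments). The other 22 sums ran from 14.2 to 110 CPM with a median of 25.7, and the single overlap with cluster 5 was cluster 6 of E12.5, a sum of 5 nuclei. Among other sums of at least 10 nuclei the highest was 47.2 CPM, in cluster 8 of E15.5. The log2 fold change was 2.28 ± 0.224 in cluster 5 (adjusted p = 9.65e-11, edgeR) and 0.11 ± 0.503 in cluster 11 (adjusted p = 0.858), and the second value changed its sign under other settings given in the closing section.

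At the Lmo2 promoter the E13.5 ratio of cluster 5 to cluster 11 was larger, but its interval overlapped that of the gene window (4.05, 2.49 to 7.12). The promoter held 137, 174 and 220 CPM in cluster 5 (10, 324 and 22 fragments), 1 fragment in cluster 11 of E13.5 and none in cluster 11 of E15.5, and no sum of the other clusters passed 20.9 CPM. The E13.5 ratio of cluster 5 to cluster 11 was 33.7, with a wide interval of 6.00 to 1335 that follows from the single fragment, and 12.8 (2.29 to 508) when scaled to all fragments. The starts further inside the gene, at 11542 and 12143 bp, held 68.2 and 76.2 CPM in cluster 5 of E13.5 and 10.3 and 20.7 CPM in cluster 11. Their E13.5 ratios were 6.60 (1.79 to 55.1) and 3.69 (1.41 to 13.7) per promoter fragments, but 2.51 (0.682 to 21.0) and 1.41 (0.537 to 5.23) per all fragments, with both intervals including 1. The Lmo2 window also overlapped that of the gene 4931422A03Rik, and the assay does not mark strand, so that their fragments cannot be told apart there.

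Klf1, the CACCC-box factor of the globin genes (ENSMUSG00000054191, chr8:84901928-84905291), held 95.1, 102 and 158 CPM in the gene window of cluster 5 (37, 880 and 56 fragments) and 158 and 227 CPM in cluster 11 (74 and 19 fragments), with 14.7 to 38.8 CPM in the other sums. Neither cluster overlapped the others. In log2 terms, Klf1 stood 2.12 ± 0.196 above the other clusters in cluster 5 (adjusted p = 1.82e-11, edgeR) and 2.61 ± 0.273 above them in cluster 11. At the promoter, per promoter fragments, the order of the 2 clusters turned: cluster 5 held 150, 224 and 330 CPM and cluster 11 held 56.8 and 32.3 CPM, close to the highest of the others (43.2 CPM). Scaled to all fragments, the E13.5 ratio of cluster 5 to cluster 11 was 1.504 (0.832 to 3.04) at the promoter and 0.471 (0.371 to 0.605) over the gene window. In both clusters the highest bin of the gene window lay over an exon, 1322 bp downstream of the start, in DNA of 69.4% GC, with 14.5 insertion CPM in cluster 5, 56.2 in cluster 11 and 5.9 in the others.

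Nfe2, the blood-specific subunit of NF-E2 (ENSMUSG00000058794, chr15:103248212-103258403, minus strand), showed the widest spread between the libraries of cluster 5. Its gene window held 97.6, 185 and 285 CPM there (38, 1593 and 101 fragments) and 205 and 131 CPM in cluster 11 (96 and 11 fragments), so that the 2 clusters overlapped, while the other sums ran from 11.6 to 54.7 CPM (cluster 8 of E13.5). For Nfe2 the log2 fold change was 2.81 ± 0.204 in cluster 5 (adjusted p = 2.50e-14, edgeR) and 2.62 ± 0.304 in cluster 11. The promoter held 178, 281 and 410 CPM in cluster 5, 87.8 and 64.6 CPM in cluster 11, and 109 CPM in cluster 8 of E13.5, which was the highest of the other clusters. The window of the fifth start, next to the intronic sequence shown above, held 82.0, 151 and 210 CPM in cluster 5.

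Gfi1b, the repressor of the set (ENSMUSG00000026815, chr2:28609450-28621982, minus strand), held 71.9, 107 and 110 CPM in the gene window of cluster 5 (28, 924 and 39 fragments) and 156 and 167 CPM in cluster 11 (73 and 14 fragments). The other sums ran from 4.64 to 46.4 CPM with a median of 16.6, with no overlap. The log2 fold change was 2.50 ± 0.249 in cluster 5 (adjusted p = 1.40e-10, edgeR) and 3.19 ± 0.353 in cluster 11. Per promoter fragments, the promoter held 41.0, 66.0 and 80.03 CPM in cluster 5, 46.5 and 0 CPM in cluster 11 and at most 39.9 CPM in the others.

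**Figure D1:**
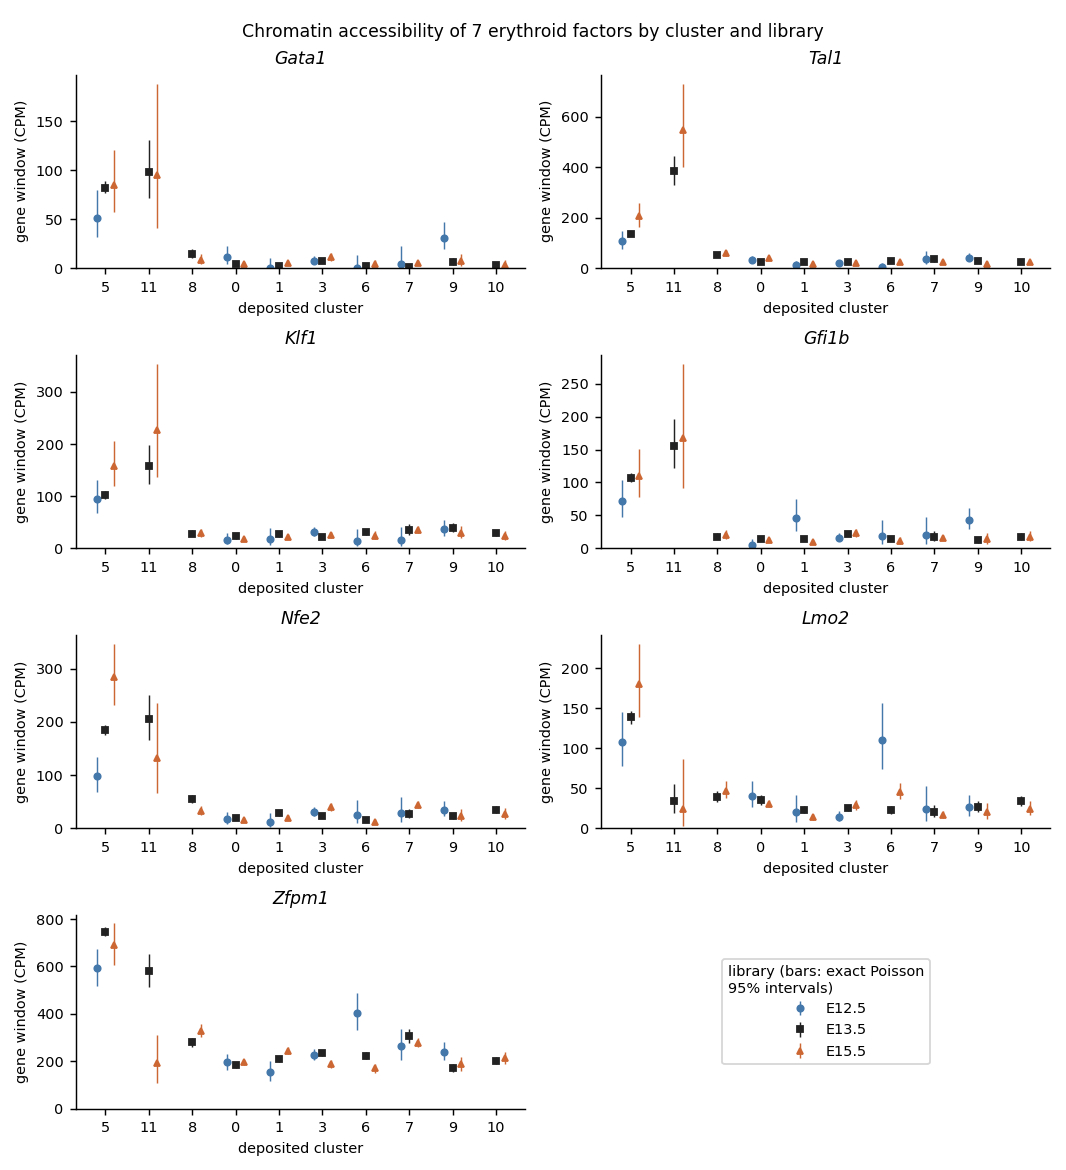
Gene-window level of each erythroid transcription factor (CPM, linear axis) in every cluster, with 1 point per library for sums of at least 5 nuclei and exact Poisson 95% intervals as bars. Cluster 5 and, except for Lmo2 and 1 library of Zfpm1, cluster 11 lie above the other clusters, with the 110 CPM of Lmo2 in cluster 6 of E12.5 as the one overlap with cluster 5: Gata1 sits at 51.4 to 98.3 CPM in these 2 clusters and at no more than 30.8 CPM elsewhere.

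Set against all genes, the 7 factors were uniformly more open in cluster 5. In the gene windows of 18849 tested genes, 13% were higher and 14.1% lower in cluster 5 than in the other clusters at an adjusted p of 0.05, with a median log2 fold change of −0.02, and all 7 factors were higher. Cluster 5 lay above every one of the 22 other sums for 6 of the 7 factors, against 3.77% of the 21593 genes. In cluster 11, 21.0% of genes were higher and 32.2% lower, with a median of −0.72, and 6 of the 7 factors were higher. Scaling with DESeq2's size factors moved the median of all genes to −0.13 in cluster 5 and −0.93 in cluster 11, so that sizes here are best read against the median. Scaled to all fragments, the calls of cluster 5 comprised 3995 higher and 1841 lower genes (68.5% higher, against 48.0%) and those of cluster 11 6157 higher and 3830 lower, and the same 7 and 6 factors were higher, with Lmo2 in cluster 11 at 0.78 (adjusted p = 0.208).

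At the promoters, 18.3% of 13718 tested genes were higher in cluster 5, and all 6 factors that passed the filter were. The largest log2 fold changes were those of Lmo2 (5.08 ± 0.342), Nfe2 (4.18 ± 0.236) and Klf1 (3.996 ± 0.270), and Zfpm1 had the smallest. With all fragments as the scale, 35.4% of promoters were higher and 14.4% lower, and all 6 factors were again higher. In cluster 11, 9.91% of promoters were higher, among them 4 of the 6 factors. Tal1 rose by 2.86 and Nfe2 by 2.06 on the log2 scale, whereas Gfi1b (1.16, adjusted p = 0.178) and Lmo2 (−0.38 ± 1.52, adjusted p = 0.866) did not pass. Scaled to all fragments, 44.8% of promoters were higher in cluster 11, among them Gfi1b (2.97, adjusted p = 0.000406), and Lmo2 stood at 1.40 (adjusted p = 0.520). In the flanks, 15% of 21032 genes were higher in cluster 5, and 5 of the 7 factors were: Tal1 led with 2.14, followed by Gfi1b with 1.24, Lmo2 with 1.10, Gata1 with 0.55 and Klf1 with 0.43. The flanks of Zfpm1 (0.38, adjusted p = 0.0527) and Nfe2 (0.04) did not pass. In cluster 11, 25.5% of flanks were higher, and again 5 of the 7 factors, with Tal1 at 3.46, Gfi1b at 1.83, Gata1 at 1.61, Klf1 at 1.46 and Nfe2 at 0.49. When all fragments were the scale, 22.7% of flanks were higher and 7.21% lower in cluster 5, where Zfpm1 passed as well (0.53, adjusted p = 0.00434), and 6639 were higher and 5464 lower in cluster 11. The flanks also hold other genes, from 2 at Lmo2 and Zfpm1 to 6 at Gata1 and Klf1, so that a call on a flank need not concern the factor. At Gata1 the highest flank bin of cluster 11 lay 30.3 kb downstream of the start and was open in all groups (42.6 insertion CPM in cluster 11, 7.40 in cluster 5 and 5.07 in the others), and with its neighbouring bins it held 46.0% of the cluster 11 insertions of the Gata1 flanks in E13.5.

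**Figure D2:**
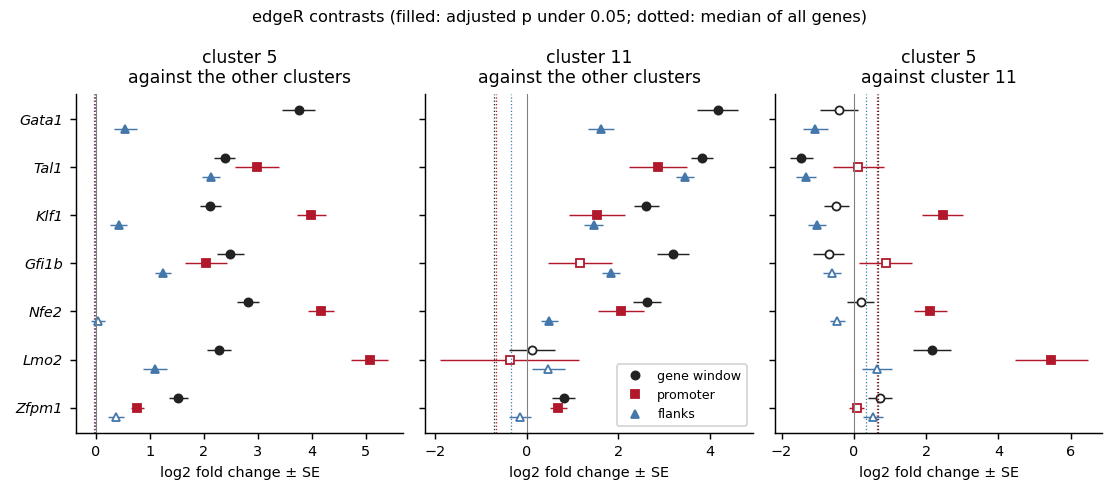
Log2 fold change of each factor (points, with SE bars) in cluster 5 and cluster 11 against the other clusters and in cluster 5 against cluster 11, for gene windows, promoters and flanks, filled where the adjusted p is under 0.05, with dotted lines at the medians of all tested genes. All 7 gene windows of cluster 5 lie above the median, from 1.53 (Zfpm1) to 3.76 (Gata1), and Lmo2 in cluster 11 lies at 0.11 for the gene window.

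The comparison of cluster 5 with cluster 11 asked whether the 2 erythroid-like clusters held the factors open to the same degree. In gene windows, 21.5% of genes were higher and 9.44% lower in cluster 5, with a median log2 fold change of 0.67. Of the factors, Lmo2 was higher in cluster 5 (2.16 ± 0.520, adjusted p = 0.00154, edgeR) and Tal1 lower (−1.45 ± 0.326, adjusted p = 0.000792). The other 5 did not pass, with log2 values of −0.41 for Gata1, −0.48 for Klf1, −0.69 for Gfi1b, 0.19 for Nfe2 and 0.72 for Zfpm1, and their SEs ran from 0.321 to 0.523. By counts alone, the E13.5 ratio of cluster 5 to cluster 11 was 0.645 (0.508 to 0.829) for Klf1, 0.686 (0.541 to 0.884) for Gfi1b, 0.835 (0.619 to 1.15) for Gata1, 0.900 (0.732 to 1.12) for Nfe2 and 1.29 (1.14 to 1.46) for Zfpm1. In E15.5 the intervals of Nfe2 (2.17, 1.16 to 4.49) and Zfpm1 (3.62, 2.19 to 6.44) lay above 1. Counted per all fragments, Zfpm1 of E13.5 turned to 0.940 (0.832 to 1.07), Gata1 stood at 0.609 (0.452 to 0.840) and Nfe2 at 0.657 (0.534 to 0.816), and in E15.5 the Nfe2 interval included 1 (1.78, 0.954 to 3.68) while that of Zfpm1 did not (2.97, 1.79 to 5.28). Without the E13.5 library, cluster 11 kept only its E15.5 sum of 7 nuclei, so that the spread came from other clusters and a call could not be judged. The values were then 2.83 for Lmo2 and −1.44 for Tal1. On the scale of all fragments, the calls over all genes turned to 2633 higher and 3866 lower in cluster 5, Lmo2 (1.69) and Tal1 (−1.97) still passed, and Klf1 (−0.99, adjusted p = 0.0221) and Gfi1b (−1.19, adjusted p = 0.0299) passed as lower.

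At promoters, 5.79% of genes were higher in cluster 5 than in cluster 11 and 1.51% lower, and 3 of the 6 tested factors were higher per promoter fragments: Lmo2 by a fitted 5.46 ± 1.01 (adjusted p = 2.67e-05), Klf1 by 2.46 ± 0.565 (adjusted p = 0.00126) and Nfe2 by 2.12 ± 0.458 (adjusted p = 0.000547). The fitted Lmo2 value rests on 1 fragment in cluster 11 and depends on the prior count. The E13.5 ratios of cluster 5 to cluster 11 at the promoter were 3.95 (2.19 to 7.98) for Klf1 and 3.20 (1.98 to 5.54) for Nfe2, while those of Tal1 (0.952, 0.536 to 1.84) and Zfpm1 (0.912, 0.757 to 1.11) included 1. These calls rest on the scaling. With both clusters scaled to all fragments, Lmo2 was still higher in cluster 5 (4.14, adjusted p = 0.00107), but Klf1 (1.09, adjusted p = 0.145) and Nfe2 (0.76, adjusted p = 0.233) did not pass, Zfpm1 was lower (−1.32, adjusted p = 1.19e-06), and 1.09% of promoters were higher and 34.5% lower. The E13.5 promoter ratios then became 1.504 (0.832 to 3.04) for Klf1, 1.22 (0.755 to 2.11) for Nfe2, 0.362 (0.204 to 0.700) for Tal1 and 0.347 (0.288 to 0.421) for Zfpm1. In the flanks, 24.1% of genes were higher and 15.9% lower in cluster 5, with a median log2 fold change of 0.35, and among the lower were Tal1 (−1.32), Gata1 (−1.07) and Klf1 (−1.03). On the scale of all fragments, 4480 genes were higher and 4207 lower, and Gfi1b (−0.74) and Nfe2 (−0.60) were lower too.

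The open chromatin around the factors was then located in 500 bp bins over each gene window and its flanks. A bin was listed when cluster 5 of E13.5 had at least 40 insertions and at least 4 times the insertion CPM of the other 8 clusters pooled, and adjacent listed bins were joined into regions. Of the 1714 bins, 179 (10.4%) were listed, against 0.287% of the 5444876 bins of the genome. Among bins with at least 40 insertions in cluster 5, these were 179 of 323 (55.4%) at the factors and 15617 of 53483 (29.2%) in the genome. They formed 58 regions, 28 in gene windows and 30 in flanks: 19 at Zfpm1, 10 at Tal1, 10 at Gfi1b, 6 at Lmo2, 5 at Gata1, 5 at Nfe2 and 3 at Klf1. The rule used E13.5 only, and the regions ran from 4.06-fold, at Nfe2, to 46.2-fold, at Gata1.

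In the libraries that the rule did not use, cluster 5 was again at least 4-fold higher in 33 of the 58 regions (E12.5) and in 42 (E15.5). Of the 33, 10 passed on 3 or fewer insertions of cluster 5, and in 6 the other clusters had under 3 insertions and were set to 3, while of the 42, 5 passed on 3 or fewer insertions. These shares (56.9% and 72.4%) were close to those of all 9034 listed regions of the genome, 58.4% and 74.6%. In cluster 11 of E13.5, 37 of the 58 regions (63.8%) were at least 4-fold higher than in the other clusters, against 33.9% of all listed regions. That count ran over 5 of 5 regions at Gata1, 9 of 10 at Tal1, 3 of 3 at Klf1, 5 of 5 at Nfe2 and 6 of 10 at Gfi1b, but 6 of 19 at Zfpm1 and 3 of 6 at Lmo2. Of these 37 regions, 5 passed on 3 or fewer insertions of cluster 11.

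**Figure D3:**
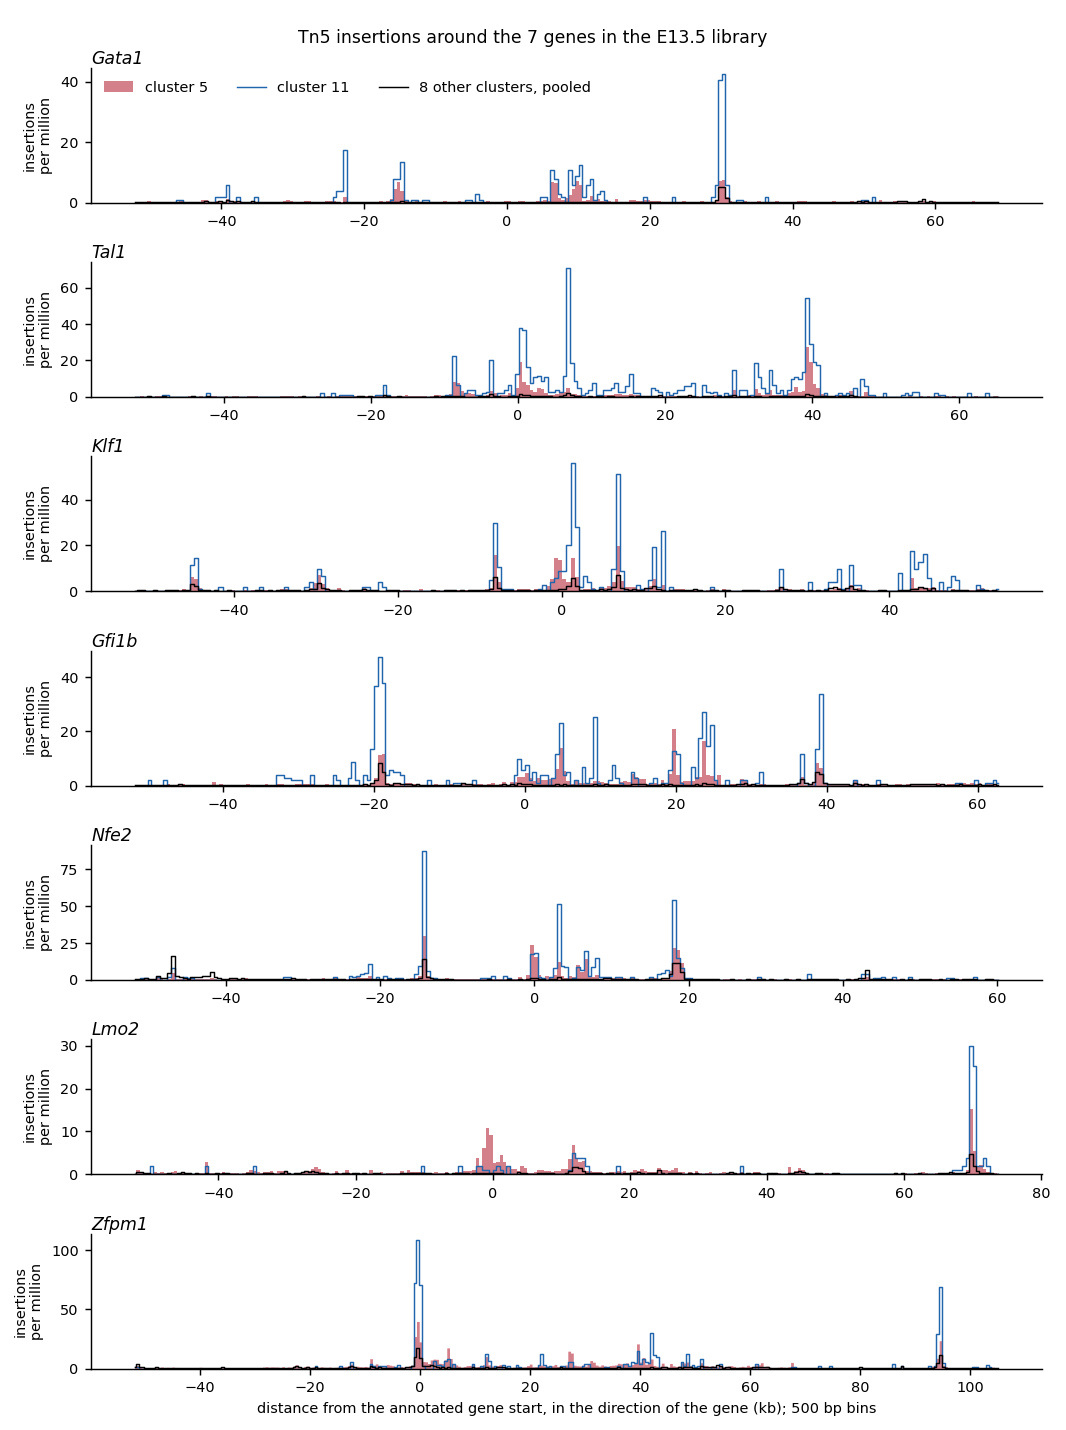
Insertion CPM in 500 bp bins of E13.5 along each factor (distance from the gene start in kb, in the direction of transcription), for cluster 5 (filled), cluster 11 and the other 8 clusters pooled (lines). Cluster 5 and cluster 11 rise in peaks that are low in the other clusters, other peaks in the flanks are shared by all traces and are tallest in cluster 11 at most of them, and the Tal1 profile of cluster 11 reaches 70.7 insertion CPM at 6824 bp past the start.

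Around Gata1, the strongest region covered the internal start (chrX:7967501-7969500), with 12, 524 and 36 cluster 5 insertions and a ratio over the others of 13.1 (E12.5), 46.2 (E13.5) and 56.0 (E15.5). A second one lay in an intron 3571 bp upstream of that start (chrX:7971001-7972000), with 2, 343 and 10 insertions and ratios of 4.80, 40.1 and 57.4, the first of which rests on 2 insertions. The intergenic region shown above (chrX:7992501-7994000) had 13, 386 and 26 insertions, a ratio of 20.2 (E13.5) and 43.1 (E15.5), and 30 insertions in cluster 11 of E13.5. Together the 5 listed regions held 38.4% of the cluster 5 insertions of E13.5 in 4.55% of the stretch, against 3.55% of the insertions of the other clusters. Since the rule chose the bins on E13.5, this excess follows from the choice. In E12.5 and E15.5, which the rule did not use, the regions held 25.4% and 54% of the cluster 5 insertions, and shares of the other clusters were not counted.

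Around Tal1, the largest region lay outside the gene. It spanned chr4:115093001-115098000, had 96, 1993 and 108 cluster 5 insertions, and was 24.0, 13.7 and 21.4 times higher than in the other clusters. Cluster 11 of E13.5 had 173 insertions there, 30.0 times the level of the others, and the GC content of its summit was 69.3%. The region at the Tal1 starts (chr4:115056001-115060000) followed with 44, 1416 and 108 insertions and ratios of 7.04, 8.44 and 13.1. The 10 listed regions held 63.2% of the cluster 5 insertions of E13.5 in 13.6% of the stretch, the highest share of the 7 genes. They held 28.2% of the insertions of the other clusters, which was also the highest of the 7. Here too the excess in E13.5 follows from the rule, and in E12.5 and E15.5 the regions held 53.3% and 71.5% of the cluster 5 insertions.

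At Lmo2, the region over the promoter (chr2:103955501-103960500) had 36, 1214 and 74 insertions in cluster 5, with ratios over the others of 22.7, 20.4 and 37.6. In cluster 11 of E13.5 it had 12 insertions, 11.6 insertion CPM against 46.5 in cluster 5, and was 5.10 times the level of the others. At Klf1 the promoter region (chr8:84900001-84902500) had 26, 1056 and 77 insertions, with ratios of 5.20, 10.8 and 33.4, and cluster 11 had 27.1 insertion CPM against 40.5 in cluster 5. The summits of these regions had 50.7% and 52.0% GC. GC values are printed for some sites only, and other regions paired differently in E13.5. The Gata1 region 22660 bp upstream had 46.3% GC and 17.4 insertion CPM in cluster 11 against 1.84 in cluster 5. The Zfpm1 region 62180 bp downstream had 65.7% GC, no cluster 11 insertion and 4.905 insertion CPM in cluster 5. The part of GC content was not tested.

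The intronic Nfe2 region (chr15:103251001-103254000) had 23, 972 and 74 cluster 5 insertions, with ratios of 5.87, 13.4 and 27.1, and its level in cluster 11 of E13.5 was 38.7 insertion CPM, next to 37.3 in cluster 5. The Gfi1b region downstream of the gene (chr2:28601501-28603000) had 22, 758 and 42 insertions and ratios of 26.4, 28.7 and 37.8, and 30.0 insertion CPM in cluster 11 of E13.5 against 29.0 in cluster 5. At Zfpm1, the intronic region shown above (chr8:122308501-122314500) had 66, 1612 and 70 insertions with ratios of 7.40, 12.6 and 12.2, and 21.3 insertion CPM in cluster 11 against 61.8 in cluster 5. A second Zfpm1 intronic region, 39660 bp from the start, had 2280 insertions in E13.5 and nearly the same level in both clusters, 87.4 and 89.1 insertion CPM. In E15.5 cluster 11 had 2 insertions in each of the Nfe2, Gfi1b and second Zfpm1 regions, or 10.2 insertion CPM, against 72.8, 41.3 and 96.4 in cluster 5, so that the likeness of the 2 clusters there holds for E13.5 only.

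GATA motifs were sought in the 300 bp around each summit. Of the 58 regions, 35 (60.3%) held a GATA match, and 16 (27.6%) held 2 or more. The share with a match was lower than that of all listed regions of the genome (80.1%) and higher than that of 17921 open regions under 4-fold (24.5%). The share with 2 or more likewise lay between those of all listed regions (46.05%) and of the open regions under 4-fold (5.59%). The composite motif occurred in 2 regions, the upstream Gata1 region and the intronic Nfe2 region shown above, or 3.45% against 11.5% of all listed regions. Of the sequences shown, the Zfpm1 region held 5 GATA matches, the Nfe2 region 4, the Gfi1b region 3, the Lmo2 region 2, and the Gata1 and Tal1 regions 1 each. The CACCC box (CCACACCC or CCACGCCC, either strand) was found in 6 of the 58 regions (10.3%, against 13.3% of all listed regions) and the NF-E2 motif (GCTGANTCA, either strand) in 4 (6.90%, against 5.91%).

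Between stages no test was possible, and the cluster 5 values of E12.5 and E15.5 came from 10 nuclei each. The ratio of E12.5 to E13.5 was below 1 for all 7 gene windows, and its 95% interval lay below 1 for Nfe2 (0.529, 0.373 to 0.729), Gata1 (0.626, 0.380 to 0.974), Gfi1b (0.672, 0.444 to 0.977) and Zfpm1 (0.795, 0.695 to 0.907). The share of all genes with such an interval was not counted, so this is no trait of the factors as a set. The median ratio of the factors was 0.778, against 0.920 over 11203 genes. Nfe2 and Gata1 were at least 1.5-fold lower, as were 22.0% of genes. At the promoter window no interval excluded 1. The E12.5 promoter levels were nonetheless below those of E13.5 for all 7 factors, and they rested on only 0 (Gata1) to 36 (Zfpm1) fragments. Flank levels of cluster 5 went both ways. Those of E12.5 were above E13.5 for Tal1 (128 and 110 CPM), Gfi1b (147 and 120) and Lmo2 (78.4 and 62.1 CPM). They were below E13.5 for Gata1, Klf1, Nfe2 and Zfpm1. The summed gene-window level of 9 endothelial markers in cluster 5 moved against the gene windows of the factors. It was 691 CPM at the youngest stage, 372 CPM at the next and 206 CPM at the oldest. Its part in the ratios of the factors was not tested.

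The ratio of E15.5 to E13.5 was above 1 with its interval for Klf1 (1.55, 1.16 to 2.03), Nfe2 (1.54, 1.25 to 1.89) and Tal1 (1.52, 1.18 to 1.93), which were thus at least 1.5-fold higher, as were 10.9% of genes, while 19.6% of genes and none of the factors were at least 1.5-fold lower. Lmo2 stood at 1.30 (0.996 to 1.68), Gata1 and Gfi1b at 1.03, and Zfpm1 at 0.926. Here too, the share of all genes whose interval lay above 1 was not counted. The median ratio of the factors was 1.30, against 0.987 over all genes. In the flanks, the E15.5 level of cluster 5 was below that of E13.5 for Klf1 (104.5 and 115.5 CPM), Lmo2 and Zfpm1. It was above that of E13.5 for Gata1, Tal1, Gfi1b and Nfe2. The share of fragments in promoters moved with stage in cluster 5, rising from 11.4% over 14.3% to 19.7%, and its part in these ratios was not tested. From E13.5 to E15.5 the summed level of 6 mesenchyme markers in cluster 5 went from 118 to 296 CPM and that of 8 hepatocyte markers from 86.8 to 39.5 CPM, and their part was not tested either. Gata1 is on the X chromosome, and scaled to gene-window fragments on X its ratios were 0.446 for E12.5 and 0.853 for E15.5.

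**Figure D4:**
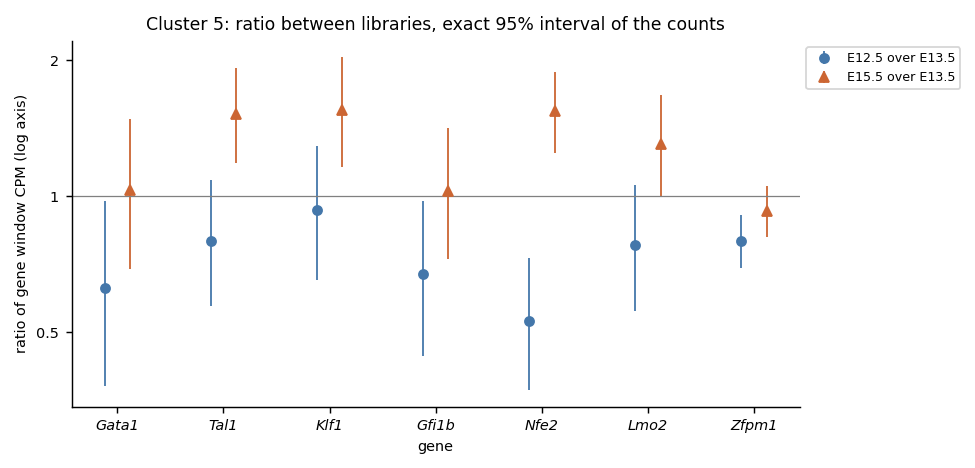
Ratio of the cluster 5 gene-window level in E12.5 and in E15.5 to that in E13.5 for each factor (log axis), with 95% counting intervals. All 7 points of E12.5 lie below 1, and the points of Klf1, Nfe2 and Tal1 for E15.5 lie at 1.52 to 1.55.

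Most cluster 5 nuclei of E13.5 had a fragment in the gene window of each factor. After thinning to 20000 fragments per nucleus, 145 of the 166 nuclei of E13.5 were deep enough, and 21 were left out. Of the 145, 59.3% had a Gata1 fragment in the gene window (exact 95% interval 50.8 to 67.4%). In cluster 0, which led in neuron markers, the share was 4.94% of 81 nuclei. Cluster 0 serves as a comparison and is not a known negative for all 7 factors. Its Tal1 gene-window level in E15.5 lay above that of every cluster used except 5, 8 and 11. The shares of the other factors in cluster 5 and cluster 0 were 78.6% and 22.2% for Tal1, 77.9% and 17.3% for Nfe2, 73.1% and 27.2% for Lmo2, 72.4% and 21.0% for Klf1, 67.6% and 13.6% for Gfi1b, and 95.2% and 77.8% for Zfpm1. Zfpm1, the longest of the windows, was thus met in most cluster 0 nuclei as well. In E12.5, 2 of 7 cluster 5 nuclei that were deep enough had a Gata1 fragment. At the shorter promoter windows, taken at the first annotated start only, the E13.5 shares in cluster 5 and cluster 0 were lower, with 2.07% and 0% for Gata1, 14.5% and 2.47% for Gfi1b, 15.9% and 2.47% for Tal1, 42.1% and 4.94% for Klf1, 42.1% and 2.47% for Lmo2, 57.9% and 2.47% for Nfe2, and 74.5% and 34.6% for Zfpm1. For Gata1 and Tal1 the second start was more open, with 228 and 407 cluster 5 fragments in E13.5 against 9 and 119 at the first. Shares of nuclei at later starts were not counted.

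Nuclei with at least 4 of the 7 factors made up 119 of 145 (82.1%, 74.8 to 87.9%) in cluster 5, 9 of 52 (17.3%) in cluster 8 and 2 of 81 (2.47%) in cluster 0. The median depths before thinning were 62521, 85392 and 63587 fragments. Without thinning the shares were 89.8% in cluster 5, 78.8% in cluster 8, 74.3% in cluster 11 and 39.1% in cluster 0. In cluster 11, 9 of 35 nuclei reached 20000 fragments, and all 9 had at least 4 factors, with a Lmo2 fragment in 22.2% of them (2.81 to 60.0%) and a Klf1 fragment in all.

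**Figure D5:**
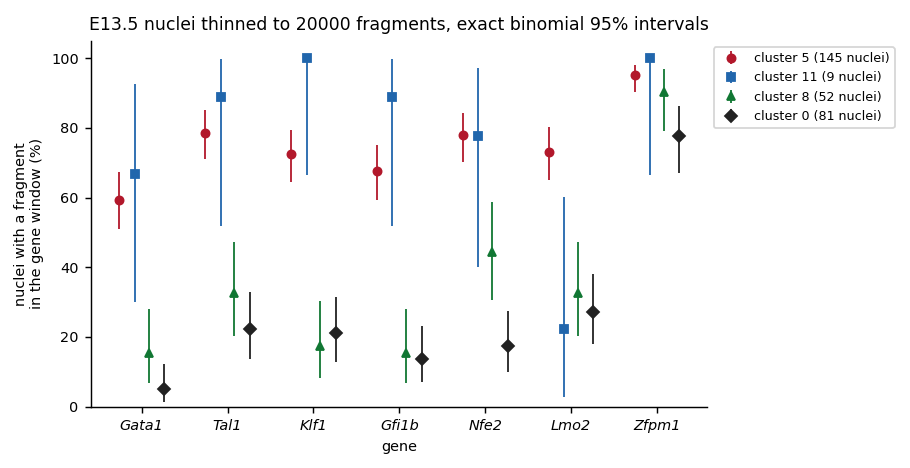
Share of E13.5 nuclei with at least 1 fragment in each gene window after thinning to 20000 fragments (percent, with exact 95% intervals), in clusters 5, 11, 8 and 0. Gata1 was found in 59.3% of cluster 5 nuclei and 4.94% of cluster 0 nuclei, and the Lmo2 share in cluster 11 (22.2%) sits near that of cluster 0 (27.2%).

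The genes known to be driven by these factors were followed with a fixed list of 25, of which 24 were tested. All 24 were higher in the gene windows of cluster 5, with a median log2 fold change of 2.24 against −0.02 over all genes, and 21 of 24 were higher in cluster 11 (2.48 against −0.72), where 13% and 21.0% of all genes were higher in the 2 clusters. The adult globin genes Hbb-bs (5.59) and Hbb-bt (6.10) and the band 3 anion exchanger gene Slc4a1 (3.22) were among the 4 with the smallest p in cluster 5. Hbb-bs and Hbb-bt are near-identical copies, so that their fragments may be misplaced between them. Several of these genes also mark the cells, and so they follow the way the clusters were named.

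A second list held 33 partner factors and factors of earlier blood cells, of which 32 were tested. In cluster 5, 10 were higher and 5 lower, with a median of 0.02, close to that of all genes, of which 13% were higher and 14.1% lower. In cluster 11, 10 were higher and 14 lower, with a median of −0.81, against 21.0% and 32.2% of all genes. Ikzf1, the gene of the zinc finger factor Ikaros, held 229, 283 and 356 CPM in cluster 5 (log2 fold change 2.43), and did not pass in cluster 11 (0.64, adjusted p = 0.119). Lyl1, a close relative of Tal1, was higher in cluster 5 (2.18) and in cluster 11 (3.18). Foxo3 (1.25) and Bach1 (1.31), the gene of a repressor that binds NF-E2-like sites, were higher in cluster 5 as well.

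Since Gata1, Tal1, Nfe2, Gfi1b, Lmo2 and Zfpm1 are also used in megakaryocytes or endothelium, markers of other cells were counted beside them. Of 7 megakaryocyte markers tested, 1 was higher in cluster 5 (Gp9, 2.48, adjusted p = 2.83e-06; 13% of all genes) and 3 were higher and 2 lower in cluster 11 (21.0% and 32.2% of all genes). Their summed level was 350 to 383 CPM in cluster 5, 348 to 1133 CPM in cluster 11 and 180 to 394 CPM outside clusters 5, 8 and 11, and Pf4, a platelet chemokine gene, held 2.57, 1.28 and 0 CPM in cluster 5. In cluster 11 the 1133 CPM came from the 7 nuclei of E15.5 (95 fragments), where its erythroid markers were lowest (370 CPM, 31 fragments). In E13.5 these sums were 348 and 1052 CPM. The erythroid label of cluster 11 is thus less sure for E15.5. No white blood, endothelial or hepatocyte marker was higher in cluster 5: of 9 white blood markers Laptm5 was lower, of 9 endothelial markers none passed (0 lower), and of 8 hepatocyte markers Apoa1 was lower. The summed endothelial level of cluster 5 nonetheless ran from 206 to 691 CPM over the libraries, highest in E12.5, against 218 to 298 CPM in cluster 11, 681 to 1199 CPM in cluster 8 and 363 to 543 CPM in the remaining clusters. Their part in the levels of the 7 factors was not tested.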

How the data were processed

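The authors deposited unique fragments per nucleus from 3 snATAC-seq libraries and a table of 1879 nuclei with cluster numbers. Per the submitters' processing notes and the file headers, these were made with Cell Ranger ATAC 2.0.0 on mm10, Seurat 4.1.0 and Signac 1.6.0. Cell Ranger ATAC moves fragment ends to the insertion and lists a duplicate group once, so neither step was repeated. The deposited count beside each fragment is its number of read pairs and was not used as a level. The study's methods describe a joint embedding of these nuclei with the spatial spots, by Seurat anchors and Harmony. Whether the deposited cluster numbers come from it, and at which resolution, was not stated there or in the file headers. From the cell table, 20 columns were not used.

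Fragments overlapping each window were summed per cluster and library with Python 3.11.15 (pysam 0.24.0, numpy 2.4.6), over 21593 protein-coding genes of up to 500 kb, without clusters 2 and 4. CPM are fragments scaled to 1000000 fragments in windows of that kind, and CPM of bins are insertions scaled to 1000000 insertions. Sums of at least 5 nuclei were fitted in edgeR 4.0.16 (R 4.3.3) with TMM, filterByExpr, the quasi-likelihood test and the library as a block. The library was both the replicate and the block. The p-values thus measure how unevenly the clusters differed from library to library, pooled over all fitted clusters, and the libraries differ in stage. Intervals are exact at 95%, and stages were compared by ratios only. The test was also run on simulated data, and the outcome is not given here. The genome sequence (GRCm38) had the chromosome names and lengths of mm10.

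The members and lists were chosen with earlier results of these data known. Named genes were the 7 members, the 10 genes most correlated with their mean z-score of log2(CPM + 1), and the 4 genes with the smallest p in each list, of which 1 is not reported here. Promoters at each annotated start, starts within 500 bp joined, and scaling to all fragments of a cluster and library without TMM were added after the data were seen. Alternatives were DESeq2 1.42.0, other scaling, filters, nuclei limits, no library block, left-out libraries, linked barcodes, insertion counting, other stage scalings, other bins and no thinning. Doublets were not called. In all, 1 barcode occurred in more than 1 library, and 175 nuclei shared at least 10% of their fragments with another barcode. Of these, 2 were in cluster 5, both among its 10 nuclei of E12.5.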

Additional observations from a re-analysis of the deposited data

Results flagged for a closer look

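Of the 7 factors, Tal1 and Lmo2 differed between the 2 erythroid-like clusters in opposite directions. The log2 fold change of cluster 5 against cluster 11 over the gene window was −1.45 for Tal1 and 2.16 for Lmo2, both past the adjusted p of 0.05 in edgeR's test of that difference. Tal1 held 385 CPM in cluster 11 and 135 CPM in cluster 5 of E13.5, and Lmo2 held 34.2 and 139 CPM. Over all genes, 21.5% were higher and 9.44% lower in cluster 5 than in cluster 11, with a median log2 fold change of 0.67. A count of 1 higher and 1 lower among 7 factors is near those shares and does not set the factors apart.

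At the promoter, Lmo2 (5.46), Nfe2 (2.12) and Klf1 (2.46) were higher in cluster 5 than in cluster 11 by the same test, with each cluster scaled to its promoter fragments. Over the gene window, scaled to gene-window fragments, Nfe2 did not pass (0.19) and Klf1 stood at −0.48. Scaled to all fragments, of which 37.5% touched a promoter window in cluster 11 of E13.5 and 14.3% in cluster 5, the promoters of Nfe2 (0.76) and Klf1 (1.09) did not pass either, and that of Lmo2 did (4.14). Whether promoter and gene-window differences of 1 gene differ from each other was not tested.

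The nuclei of clusters 2 and 4 entered none of the comparisons. In cluster 2 of E13.5 the gene windows of the 7 factors summed to 439 CPM (394 to 488), above the 355 CPM of the other 8 clusters. In E12.5 and E15.5 cluster 2 held 471 and 302 CPM, with intervals that included the level of the other clusters (380 and 351 CPM), and cluster 4 held 221 to 449 CPM and was above in no library.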

How the results depend on the processing

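All 7 factors were higher in cluster 5 than in the other clusters under all 13 alternatives. The genes called over the gene windows numbered 5096 for cluster 5, 10031 for cluster 11 and 5835 between them. Leaving out each library gave 2134 to 5584, 2024 to 10528 and 514 to 6244, the lowest each time without E13.5, and without E15.5 the cluster 5 count was 2719. Without E13.5 cluster 5 rested on 20 nuclei. Cluster 11 had no spread of its own without E13.5 or without E15.5, since a single sum was then left to it. DESeq2's size factors gave 1905 higher and 3333 lower in cluster 5 (36.4% higher, against 48.0%), and DESeq2 gave 2138 and 3834 (35.8%).

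Lmo2 in cluster 11 turned to −0.12 with DESeq2, −0.10 with its size factors and −0.53 without E13.5 (left-out libraries −0.53 to 0.22), and Zfpm1 in cluster 11 to −0.57 without E13.5 (−0.57 to 1.34). Nfe2 between clusters 5 and 11 turned to −0.081 with at least 10 nuclei per sum and −0.47 without E15.5 (−0.47 to 0.94). Zfpm1 between clusters 5 and 11 passed with DESeq2 (0.83, adjusted p = 0.0287), with its size factors (0.80, 0.0464) and without E12.5 (0.77, 0.0418). It stood at 1.98 without E13.5, where cluster 11 was only its E15.5 sum of 7 nuclei. The cause of these changes was not tested. The numbers of factors whose E12.5 to E13.5 interval excluded 1 fell from 4 to 0 with promoter windows, which held fewer fragments. The listed bins fell from 10.4% to 5.13% at 8-fold (10.8% in 1000 bp bins), and the nuclei with at least 4 factors rose to 89.8% without thinning. Requiring a fragment end in the window left the gene-window counts of the 7 factors unchanged by construction. The longest fragment had 4944 bp and the shortest of their gene windows 5364 bp (Klf1). Per-start promoters and scaling to all fragments were added after the data were seen. With the second, the promoters called between clusters 5 and 11 rose from 1001 to 4882, and Klf1 (1.09) and Nfe2 (0.76) no longer passed there. Tal1 turned to −1.20, Gfi1b to −0.53 and Zfpm1 to −1.32 at these promoters, Nfe2 to −0.30 over the gene window, and in cluster 11 against the others Lmo2 to 1.40 at the promoter and Zfpm1 to 0.13 in the flanks. Over the gene window Klf1 (−0.99, adjusted p = 0.0221) and Gfi1b (−1.19, 0.0299) then passed as lower in cluster 5 than in cluster 11. The cluster contrasts were paired within libraries by the library block, and between stages no paired analysis was possible because each stage had 1 library.

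Depth limits cluster 11 (2 to 271 fragments per factor) and the 10 nuclei of cluster 5 in E12.5 and in E15.5.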

Other observations

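The genes whose gene-window level followed the 7 factors most closely were, in order of Pearson's r with their mean z-score over 24 sums of at least 10 nuclei, Kcnn4 (0.939), Epor (0.938), Apeh (0.933), Nprl3 (0.933), Tspan33 (0.928), Mthfd2 (0.924), Btn1a1 (0.923), Ranbp10 (0.920), Frs2 (0.920) and Slc4a1 (0.917), out of 13573 genes with a mean of at least 20 CPM. These values are descriptions over sums that share libraries and clusters. Epor encodes the erythropoietin receptor, Kcnn4 the calcium-activated potassium channel of red cells, and Slc4a1 the band 3 anion exchanger. Nprl3 holds in its introns the known enhancers of the neighbouring alpha-globin genes, and its window held 285, 396 and 485 CPM in cluster 5 of E12.5, E13.5 and E15.5 and 543 CPM in cluster 11 of E13.5, against at most 107 CPM in the other clusters. None of the 10 windows overlaps that of a factor.

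Among the 7 factors themselves, r over the same 24 sums ran from 0.588 (Gfi1b and Lmo2) to 0.925 (Klf1 and Nfe2), with a median of 0.801 over the pairs.

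Ranked by fold over the other clusters in E13.5, with 1 CPM added to both levels and among genes with at least 20 CPM in the cluster concerned, Gata1 stood 4th in cluster 5 (12.6) and 6th in cluster 11 (15.1), where Tal1 was 7th (13.3). Lmo2 was 43rd in cluster 5 and 6127th in cluster 11, and Zfpm1 141st and 2006th.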
